A study of Mus musculus with 40 samples.

Results

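The 9 genes described here encode the enzymes that build coenzyme A and those that break it down: the pantothenate kinases Pank1, Pank2 and Pank3, the related Pank4, the later synthesis enzymes Ppcs, Ppcdc and Coasy, and the hydrolases Nudt7 and Nudt19. They were selected by gene symbol, 9 of the 20078 symbols that the 4 expression tables hold between them, and were chosen with the nicotine-against-control differences of these same libraries known. Those differences are therefore given as descriptions, without a p-value for any of the 9 genes. All 9 were listed in each table. Of these, 8 had in every table a mean normalized count of 10 or more and entered the fit across all genes, and Pank4, whose mean lay between 1.5 and 3.4, did not.

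Gonadal fat (gWAT, gonadal white adipose tissue) and liver came from male and female C57BL/6J mice, an inbred strain, whose fathers had received nicotine or a control treatment that the table headers name DMSO. The labels assign 5 samples to each of 8 groups (either tissue, either sex, control or nicotine fathers), and 39 library columns were analysed, with 4 control columns in male gWAT. No genotype differs between the groups, the offspring themselves are not labelled as treated, and no label read here states the dose, the age of the offspring or which fathers and litters they came from. A p-value therefore reflects the spread among these libraries alone, and that spread may be technical. Each library reads short tags near the 3′ ends of polyadenylated transcripts from whole tissue. Values are normalized counts, read counts divided by a size factor per library within a table, and groups are compared only within a table.

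Coenzyme A carries acyl groups in fatty acid oxidation, lipid synthesis and the citric acid cycle. Cells make it from pantothenate, vitamin B5: a pantothenate kinase adds a phosphate in the rate-limiting step, Ppcs joins cysteine to the product, Ppcdc removes a carboxyl group, and Coasy carries out the final steps. The kinases are inhibited by acetyl-coenzyme A, the end product in its loaded form. Liver is known for a large coenzyme A pool that grows in fasting, Pank1 is a main kinase there, and Nudt7 is a hydrolase of liver peroxisomes that cleaves coenzyme A, as Nudt19 does chiefly in kidney. Pank4 lacks pantothenate kinase activity.

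In the mm10 assembly, with GENCODE M21 gene models, Pank1 (ENSMUSG00000033610.16) spans chr19:34806940-34879455 on the minus strand, Pank3 (ENSMUSG00000018846.8) chr11:35769484-35791285 on the plus strand and Nudt7 (ENSMUSG00000031767.13) chr8:114133557-114154739 on the plus strand. Coasy lies at chr11:101082565-101086619, Pank2 at chr2:131262495-131299188, Pank4 at chr4:154964123-154980938, Ppcs at chr4:119418530-119422420, Ppcdc at chr9:57385095-57440124 and Nudt19 at chr7:35547185-35556304. RefSeq promoter entries (GRCm38.p6) were matched for 8 of the 9 genes, all but Coasy. The stretches before the starts of Pank1, Pank3 and Nudt7 are shown. They were picked because, in normalized counts, the control and nicotine groups of these 3 genes did not overlap in female gWAT or male liver. Pank1 has 2 annotated starts, 1538 bases apart, whose transcripts share their 3′ end, so the tags do not tell them apart. Each is 5′ to 3′ on the gene's strand, up to 250 bases long and shortened where an annotated transcript begins, at chr19:34879456-34879705, chr19:34877918-34878167, chr11:35769245-35769483 and chr8:114133324-114133556. Capitals mark matches to the motifs searched.
Pank1, upstream start: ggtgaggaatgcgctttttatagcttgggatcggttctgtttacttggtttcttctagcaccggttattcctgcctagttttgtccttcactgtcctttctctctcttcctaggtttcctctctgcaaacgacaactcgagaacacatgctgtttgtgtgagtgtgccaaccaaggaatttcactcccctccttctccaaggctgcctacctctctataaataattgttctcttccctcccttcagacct
Pank1, downstream start: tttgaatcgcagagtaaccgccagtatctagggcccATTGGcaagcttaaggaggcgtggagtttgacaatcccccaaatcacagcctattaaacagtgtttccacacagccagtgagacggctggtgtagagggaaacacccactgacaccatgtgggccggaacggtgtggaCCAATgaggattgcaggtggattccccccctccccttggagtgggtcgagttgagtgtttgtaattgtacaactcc
Pank3: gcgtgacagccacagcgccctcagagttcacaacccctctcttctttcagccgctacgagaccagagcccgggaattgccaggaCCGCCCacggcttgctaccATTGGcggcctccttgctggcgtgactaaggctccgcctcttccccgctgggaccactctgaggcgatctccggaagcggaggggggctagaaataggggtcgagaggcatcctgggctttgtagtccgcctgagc
Nudt7: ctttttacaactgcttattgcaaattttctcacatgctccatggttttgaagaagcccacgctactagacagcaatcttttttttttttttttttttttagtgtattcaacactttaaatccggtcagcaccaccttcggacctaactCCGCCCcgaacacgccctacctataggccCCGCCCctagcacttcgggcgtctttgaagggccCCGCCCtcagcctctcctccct
Both strands were searched for the GC box GGGCGG, the CCAAT box CCAAT, the E-box CACGTG, the nuclear receptor site DR1 (a direct repeat of AGGTCA with 1 base between) and the half-site AAGGTCA. The upstream Pank1 window held no match, the downstream one held 2 CCAAT boxes, the Pank3 window held 1 GC box and 1 CCAAT box, and the Nudt7 window held 3 GC boxes, with no overlap between motifs. Of 32851 RefSeq promoters cut to the 250 bases before the start, 32.7% held the GC box, 33.8% the CCAAT box, 6.02% the E-box, 0.0335% the DR1 and 4.08% the half-site. A match describes the sequence only.

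The libraries held 1543208 to 2239073 reads assigned to genes. Summed hepatocyte markers (Alb, Apoa1, Ttr, Cps1, Serpina1b, Tat) reached 50300 to 88248 normalized counts in every liver library, and summed adipocyte markers (Adipoq, Plin1, Fabp4, Cfd, Lep, Cidec) reached 27381 to 113270 in every gWAT library. Several libraries stood apart. In female liver, control library 4 and nicotine library 5 held muscle transcripts at sums of 139 and 257, against 15.7 or under in the others. Male liver nicotine libraries 1 and 5 were low in male-biased liver genes, nicotine library 2 held pancreatic and nicotine library 4 muscle transcripts, and female gWAT control library 2 held muscle transcripts at a sum of 20847. Epididymal transcripts varied from 37.3 to 11660 among the male gWAT libraries, nicotine library 1 there held hepatocyte transcripts, nicotine library 4 had 0.454% mitochondrial reads against 4.21% to 9.58% in the other male gWAT libraries, and all female gWAT nicotine libraries differed from the controls in mitochondrial reads. The values behind these statements stand beside the results they touch.

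In control libraries Pank1 was higher in liver than in gWAT and Pank3 was lower. On the RPM scale (reads scaled to 1000000 assigned reads per library), Pank1 stood at 1116 ± 105 (SD, n = 5) in male liver and 1018 ± 76.8 (n = 5) in female liver, against 56.6 ± 42.6 (n = 4) in male gWAT and 29.8 ± 12.8 (n = 5) in female gWAT. The lowest control liver library, at 922, was far above the highest control gWAT library, at 119, while the sexes overlapped within each tissue. The ratio of the control means was 34.2-fold in females and 19.7-fold in males, liver over gWAT.

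Pank3, the other widely expressed cytosolic kinase, stood at 973 ± 234 (n = 4) in male gWAT and 562 ± 118 (n = 5) in female gWAT, against 209.8 ± 38.0 in male liver and 165.8 ± 21.7 in female liver (n = 5 each). Again the tissues did not overlap and the sexes did. Counted within a library, which cancels depth and scaling, control livers held 6.20 ± 0.68 (female) and 5.44 ± 0.99 (male) Pank1 reads per Pank3 read, and control gWAT held 0.0527 ± 0.0197 (female) and 0.0720 ± 0.0781 (male). Tag counts of different genes are not compared per length here, so the ratio is read only across samples. Pank2, whose human counterpart is mutated in a neurodegenerative disease, was also lower in control liver (20.4 ± 3.79 RPM in females, 21.3 ± 5.13 in males) than in control gWAT (43.4 ± 4.90 and 39.2 ± 5.81), with no overlap between the tissues.

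Nudt7 was the only one of the 9 whose control livers did not overlap between the sexes: 635 ± 86.8 RPM in male liver (538.5 to 751) against 139 ± 12.0 in female liver (125 to 151), a 4.56-fold ratio (n = 5 each). In gWAT it stood at 36.1 ± 5.39 in females and 29.4 ± 11.8 in males. The means of the remaining enzymes lay closer together over the 4 control groups. They ran from 30.7 to 39.1 RPM for Ppcs, 7.87 to 14.5 for Ppcdc, 64.9 to 124 for Coasy and 34.9 to 42.8 for Nudt19. Ppcdc did not overlap between the sexes in control gWAT (4.77 to 9.56 RPM in females, 12.6 to 18.0 in males). Coasy did not overlap between the tissues in male controls (liver 101 to 161, gWAT 60.4 to 68.0), whereas in female controls it did. These levels come from tables normalized and filtered separately and were not tested.

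**Figure D1:**
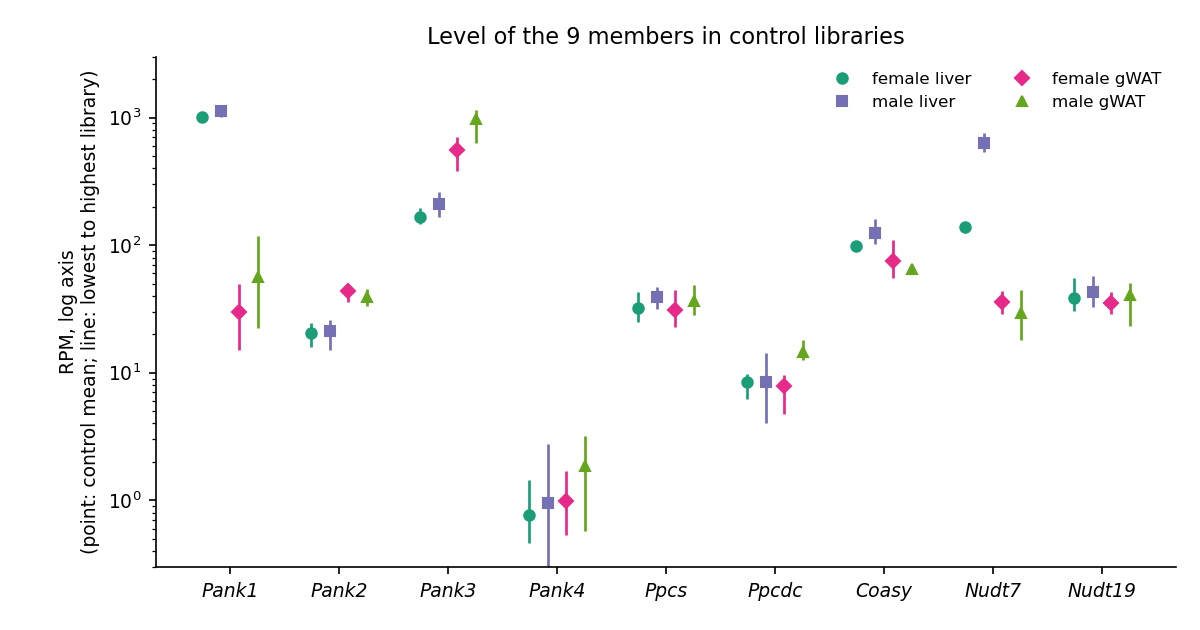
RPM (log axis) of the 9 genes in the control libraries of each tissue and sex; points are group means (n = 5, and n = 4 in male gWAT) and lines run from the lowest to the highest library, leaving the axis where a Pank4 library had no read. Pank1 sits near 1000 in liver and under 120 in all gWAT controls, Pank3 is higher in gWAT, and Nudt7 is highest in male liver.

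In female gWAT, Pank1 had more normalized counts in every library from nicotine fathers than in any control library. The control libraries 1 to 5 held 51.0, 52.2, 82.1, 24.7 and 37.3 normalized counts of Pank1, and the nicotine libraries 1 to 5 held 159, 334.5, 636, 115 and 194. The groups did not overlap, nicotine library 3 was the highest of all, and library 4 was the lowest of its group. The mean went from 49.5 ± 21.4 to 288 ± 211 (SD, n = 5 each), 5.82-fold, a log2 difference of 2.35 with a standard error (SE) of 0.41 on the log2(normalized count + 1) scale. In whole tissue, more cells that express a gene and more RNA per cell cannot be told apart.

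Pank3 held 993, 1157, 945, 621 and 923 normalized counts in the female gWAT controls and 913, 1598, 1843, 2520 and 1292 in the nicotine libraries. Nicotine library 1 lay within the control range and the other 4 lay above it, for a mean of 928 ± 194 against 1633 ± 606 and a log2 difference of 0.76 (SE 0.25). Coasy held 142, 109.9, 179, 90.7 and 103 in controls and 138, 204, 290.0, 270.4 and 178 in nicotine libraries, so that 3 of 5 lay above every control (log2 difference 0.78, SE 0.23). Nudt7, on the degrading side, held 70.6, 47.6, 71.6, 58.6 and 51.3 in controls and 72.2, 91.8, 135, 123 and 107 in nicotine libraries. Its groups did not overlap, but nicotine library 1 and control library 3 differed by under 1 normalized count (log2 difference 0.79, SE 0.20).

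Of the other members, Pank2 differed by 0.17 (SE 0.18) on the log2 scale, Ppcs by 0.38 (SE 0.25), Ppcdc by 0.44 (SE 0.31) and Nudt19 by -0.20 (SE 0.25), all with overlapping groups. Pank4, under the minimum for the fit, averaged 1.63 ± 0.77 normalized counts in controls and 5.17 ± 2.31 in nicotine libraries, 4 of which lay above every control. Thus 4 of the 8 tested members, Pank1, Pank3, Coasy and Nudt7, passed an adjusted p of 0.05 as higher with limma, and the same 4 with edgeR, with DESeq2 and in the authors' deposited table. The background was 25.2% of all 10532 genes called in female gWAT, 12.4% higher and 12.8% lower, and 16.7% of genes had groups that did not overlap. Since the members were chosen with this contrast known, nothing is read from these counts. The median log2 difference of the 8 was 0.60, beside -0.03 over all tested genes.

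**Figure D2:**
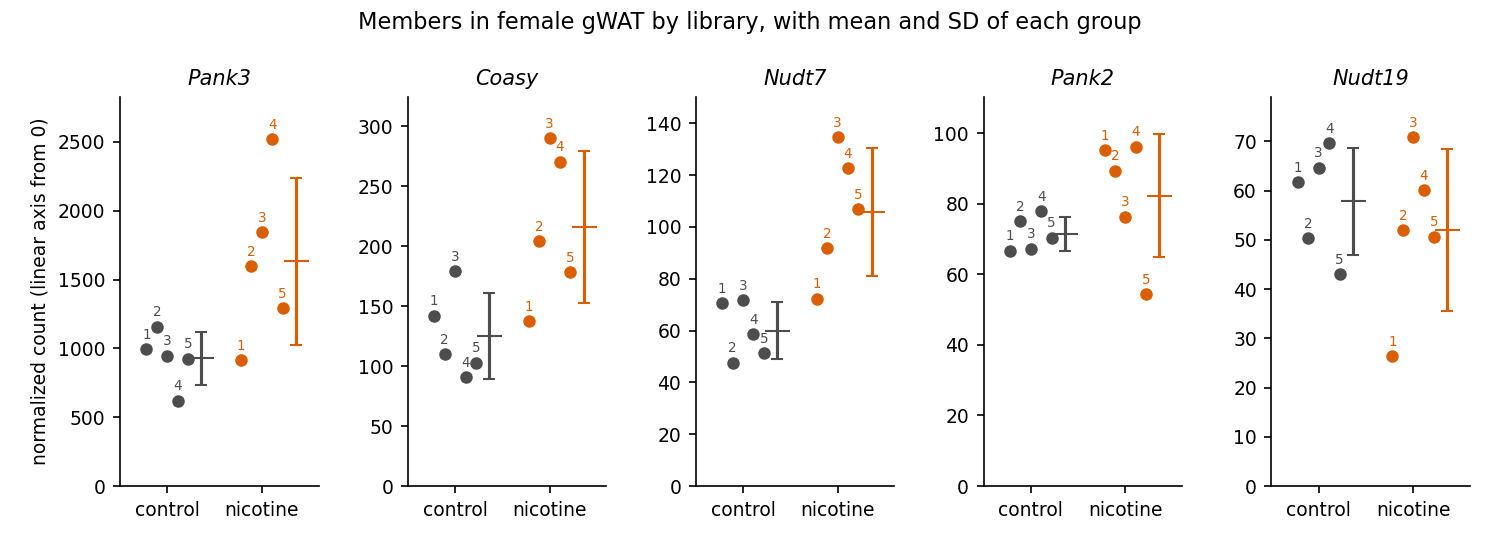
Normalized counts (linear axis from 0) of 5 members in each female gWAT library, numbered, with the group mean and SD (n = 5 each). Nicotine library 1 lies inside the control range for Pank3 and Coasy and just above it for Nudt7. Nicotine library 5 also lies inside it for Coasy, while Pank2 and Nudt19 overlap throughout.

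The scaling of the female gWAT libraries decided 3 of these 4 calls. Reads of mitochondrially encoded genes made up 19.3% to 32.5% of the nicotine libraries and 8.23% to 13.0% of the controls, and 14632 to 15927 genes had a read in the nicotine libraries against 15877 to 16190 in the controls. When the recovered reads were scaled to each library's total, an alternative chosen after seeing the data, the median of all genes moved from -0.03 to -0.36 and the calls from 1303 higher and 1353 lower to 481 higher and 2644 lower. Pank1 kept its call at a log2 difference of 2.01, while Pank3 at 0.42, Coasy at 0.44 and Nudt7 at 0.45 no longer passed, each still above the shifted median. On that scale the Pank1 groups overlapped: nicotine library 4 held 49.6 RPM and control library 3 held 49.9. The Nudt7 groups overlapped too, with nicotine libraries 1 and 2 at 35.2 and 39.5 RPM and the controls at 28.8 to 43.5. Within a library, Pank1 reads per Pank3 read averaged 0.185 ± 0.108 in nicotine libraries (lowest 0.0458) and 0.0527 ± 0.0197 in controls (highest 0.0869).

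Leaving out single libraries kept the Pank1 difference between 2.00 and 2.61. Without control library 2, which held muscle transcripts, it was 2.40 and the 4 members were called, but only 2 members were called without control library 4 or 5 or without nicotine library 2, 3 or 4. Pank3 lost its call without control library 1, 3, 4 or 5 or nicotine library 2, 3 or 4, and Coasy without control library 4 or 5 or nicotine library 2, 3 or 4. After a spline on GC content and transcript length was taken out of each library, also chosen after seeing the data, Pank1 stood at 2.22 and Pank3, at 0.52, was not called.

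Other cells' transcripts moved alongside. Macrophage markers (Cd5l, Vsig4, Adgre1, Cd68 and Lyz2, 5 of 6 listed in the table, without Clec4f) summed to 150 to 443 normalized counts in the controls and 42.1 to 113 in the nicotine libraries, and mesothelial markers (all 5 listed) to 137 to 297 and 72.7 to 187. Brown adipocyte genes were a list added after values were seen (Ucp1, Cidea, Cox7a1, Cox8b, Elovl3, Dio2, Otop1 and Ppargc1a, all 8 listed). Their sums were 398 to 1201 in controls, against 341 to 4642 in the nicotine group. The sum of 1201 was that of control library 2, which held muscle transcripts and 560 of Cox7a1. Dio2 held 273 and 285 in control libraries 4 and 5, 25.7 to 112 in the other controls and 25.2 to 183 in nicotine libraries. Ucp1, the uncoupling protein that defines brown fat, held 185, 147, 191, 61.4 and 0.8 in controls 1 to 5 and 578, 593, 1510, 33.7 and 553 in nicotine libraries 1 to 5. Nicotine library 3 was thus the highest for Pank1 and for Ucp1, whereas library 4 had Ucp1 within the control range and Pank1 above every control. Pancreatic markers were not listed in this table. The part of these transcripts in the Pank1 difference was otherwise not tested.

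In male liver, Pank1 and Pank3 were lower in every nicotine library than in any control library. Pank1 held 1968, 2128, 2118, 1925 and 2437 normalized counts in control libraries 1 to 5 and 669, 1859, 1877, 1659 and 730 in nicotine libraries 1 to 5. Nicotine libraries 1 and 5 formed a low pair, and the other 3 lay just under the control range. The mean was 2115 ± 201.2 against 1359 ± 608 (SD, n = 5 each), with a log2 difference of -0.78 (SE 0.28).

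Pank3 held 452, 317, 467, 339.5 and 409 in the male liver controls and 200.1, 282, 299.5, 259 and 225 in the nicotine libraries. Here libraries 1 and 5 were again the lowest, but the 5 values lay close together (253 ± 40.6 against 397 ± 66.5, log2 difference -0.65, SE 0.15). Nudt7 held 1093, 1299, 1154, 1423 and 1042 in controls and 189, 1537, 1687, 972 and 316 in nicotine libraries. It thus split its own group, with libraries 1 and 5 far under every control, library 4 just under and libraries 2 and 3 above (log2 difference -0.80, SE 0.50).

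All 8 tested members had a lower mean log2 value in the male nicotine libraries, with a median difference of -0.31 beside 0.00 over all genes. For Nudt19 (-0.01, SE 0.15) and Coasy (-0.08, SE 0.14) that sign turned when reads were scaled to library totals, to 0.10 and 0.03, a scaling under which the median of all genes stood at 0.11. Pank2 differed by -0.12 (SE 0.18), Ppcs by -0.14 (SE 0.13) and Ppcdc by -0.49 (SE 0.41), with overlapping groups. No member was called by limma or by edgeR, each with 2 at an unadjusted p under 0.05 (Pank1 and Pank3). In male liver limma called 0.055% of 9093 genes, 14.5% had an unadjusted limma p under 0.05, and the groups of 3.16% did not overlap. DESeq2 called Pank3 alone of the members, beside 2.05% of all genes, and in the authors' deposited table Pank3 was 1 of 154 genes below the threshold.

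Libraries 1 and 5 also held little of the male-biased liver genes (Elovl3, Cyp4a12a, Mup20, Hsd3b5, Slco1a1 and Susd4, all 6 listed): their sums were 1154 and 1759 normalized counts, against 5838 to 6425 in the other nicotine libraries and 5417 to 9294 in controls. Their hepatocyte sums, 51269 and 50300, were the lowest of male liver (62100 to 71351 in controls), and their Kupffer cell and macrophage sums (all 6 listed), 467 and 446, were the highest (238 to 372 in controls). Without these 2 libraries the log2 difference of Pank1 was -0.23, that of Pank3 -0.49 and that of Nudt7 0.19, so the sign of Nudt7 turned. Pancreatic markers summed to 6778 in nicotine library 2, with 5 of 6 listed, and skeletal muscle markers to 5084 in nicotine library 4; both lists were at 6 or under in the other male liver libraries. Without libraries 2 and 4, chosen after seeing the data, Pank1 stood at -1.12 and Pank3 at -0.72. The part of these transcripts in the differences was otherwise not tested.

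**Figure D3:**
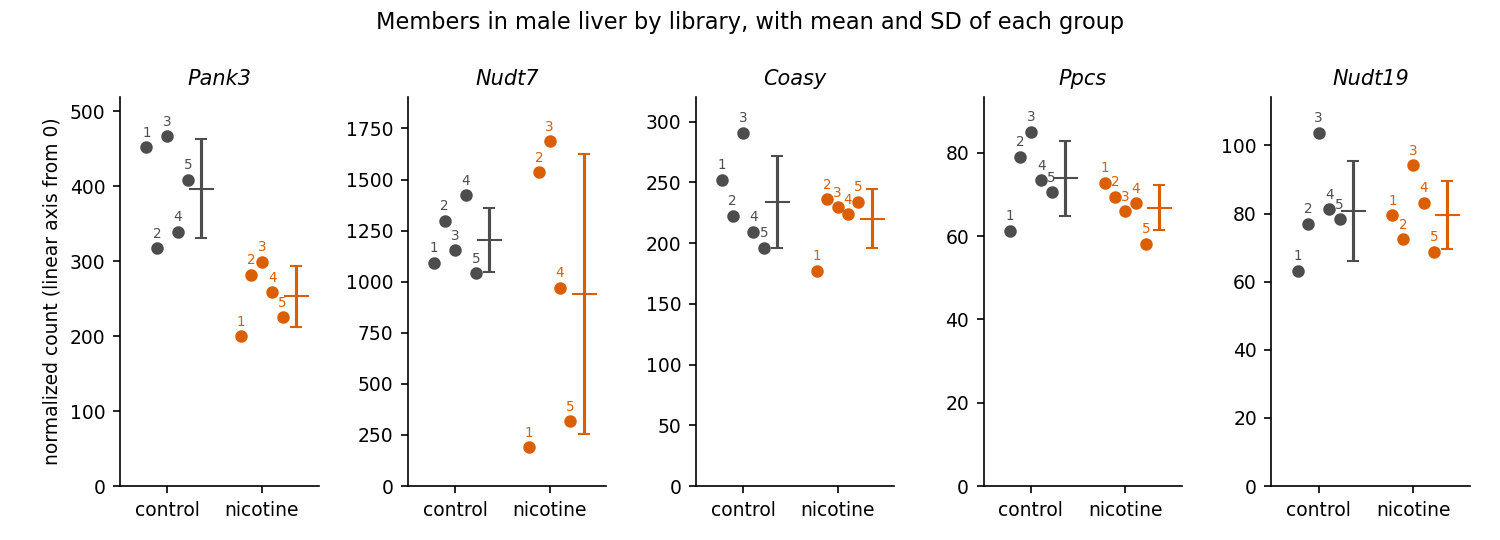
Normalized counts (linear axis from 0) of 5 members in each male liver library, numbered, with the group mean and SD (n = 5 each). Pank3 is lower in all 5 nicotine libraries, Nudt7 is far under the controls in nicotine libraries 1 and 5 and just under them in library 4, and Coasy, Ppcs and Nudt19 overlap.

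In female liver, Pank1 differed little: 1865, 2109, 1890, 2162 and 2045 normalized counts in control libraries 1 to 5 and 1960, 1934, 1769, 1772 and 1976 in nicotine libraries 1 to 5. All 5 nicotine libraries lay under the control mean and 2 lay under every control, for 2014 ± 132 against 1882 ± 103 (n = 5 each) and a log2 difference of -0.10 (SE 0.08). Coasy showed the clearer separation, with 184.5, 197, 200.4, 203 and 198 in controls and 157, 174, 186, 134 and 162 in nicotine libraries. Of the latter, 4 lay under every control (log2 difference -0.28, SE 0.10). Pank3 (0.15, SE 0.10), Pank2 (0.32, SE 0.16), Nudt19 (0.30, SE 0.15), Nudt7 (0.04, SE 0.13), Ppcs (-0.01, SE 0.16) and Ppcdc (-0.10, SE 0.24) overlapped between the groups. None of the 8 was called by limma, edgeR or DESeq2, and Coasy alone had an unadjusted p under 0.05 with each tool, beside a background of 3.28% of 9173 genes called by limma, 17.6% with an unadjusted limma p under 0.05 and 4.73% without overlap.

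In male gWAT, Pank1 varied as much within the groups as between them. The 4 control columns held 214, 76.5, 39.0 and 65.1 normalized counts and nicotine libraries 1 to 5 held 209.8, 34.8, 134.5, 38.1 and 36.0, with a log2 difference of -0.26 (SE 0.63). The first control column and nicotine library 1 were highest, and these also held the largest sums of the epididymal and ovarian marker list (5 of 6 listed, without Amh), 11660 and 9079, against 37.3 to 3479 in the other 7. Hepatocyte markers (all 6 listed) summed to 3045 in nicotine library 1 and 624 in control column 1, the highest of each group, against 177 to 585 in the other 7. The part of these transcripts in the Pank1 values was otherwise not tested. Without control column 1 the Pank1 difference was 0.21 and without nicotine library 1 it was -0.66. With both left out, chosen after seeing the data, it was -0.20.

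Coasy was the exception in male gWAT, with 108.7, 114, 114 and 108.5 in the control columns and 136, 116, 143, 149.6 and 220.0 in the nicotine libraries, all 5 above every control (111 ± 3.05, n = 4, against 153 ± 39.6, n = 5; log2 difference 0.42, SE 0.19). The remaining 6 tested members overlapped, with log2 differences from 0.08 for Pank3 (-0.01 with quantile normalization) to 0.41 for Ppcs. No member was called by limma, edgeR or DESeq2. Unadjusted p-values under 0.05 numbered 0 with limma and 1 each, for Coasy, with edgeR and DESeq2. The background was 0% of 11210 genes called by limma, 1.76% and 1.65% with an unadjusted p under 0.05 in edgeR and DESeq2, and 0.731% without overlap.

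**Figure D4:**
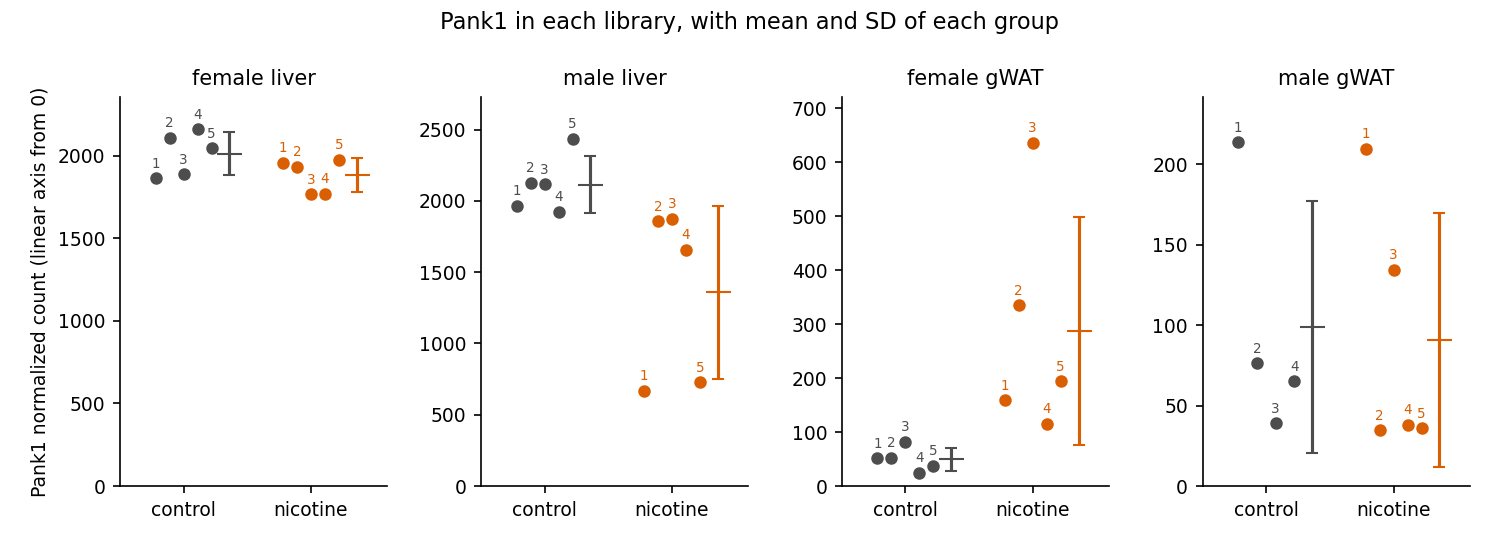
Normalized counts of Pank1 (linear axis from 0, a separate axis per table) in each library, numbered, with the group mean and SD (n = 5, and n = 4 male gWAT controls, numbered by column). On this scale the female gWAT nicotine libraries (115 to 636) lie above the controls (24.7 to 82.1), the male liver nicotine libraries (669 to 1877) lie below the controls, and the other groups overlap.

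**Figure D5:**
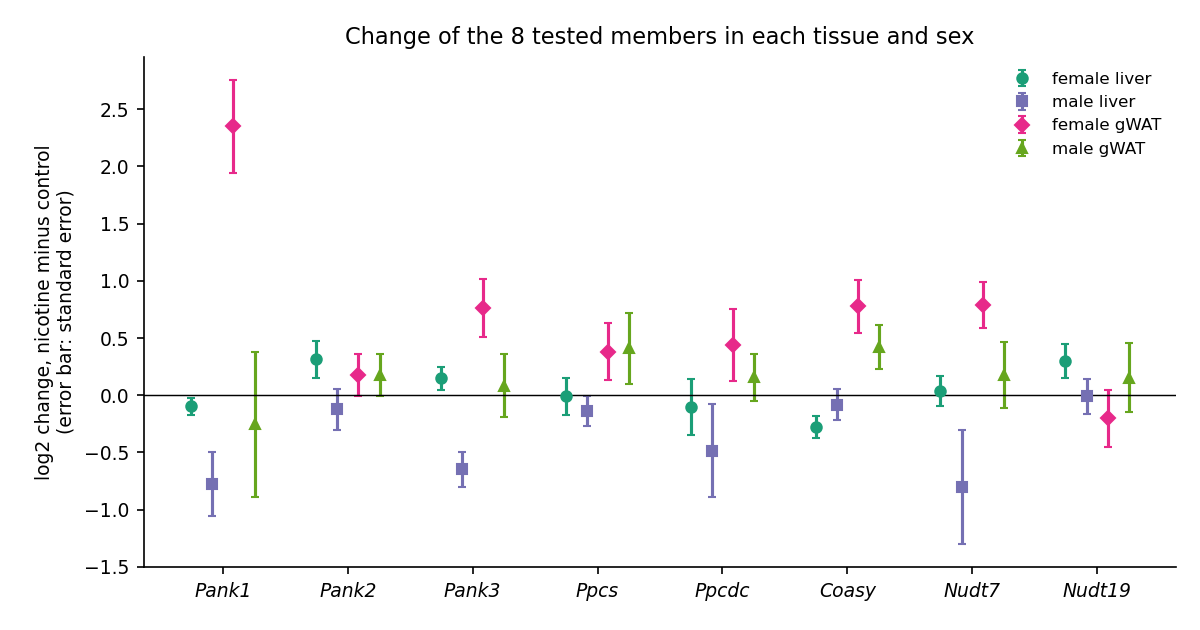
Log2 difference, nicotine minus control, with its standard error, of the 8 tested members in each tissue and sex (limma on log2(normalized count + 1); n = 5 against 5, and 4 controls in male gWAT). Pank1 spans -0.78 in male liver to 2.35 in female gWAT.

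The genes that surround coenzyme A were followed in 4 lists: its supply, transport and transfer (8 genes), the acyl-coenzyme A thioesterases, which free it (11), the acyl-coenzyme A synthetases, which load it (18), and targets of PPARα, the lipid-sensing nuclear receptor (17). In female gWAT, 13 of their 38 tested genes passed (34.2%, beside 25.2% of all genes), 11 higher and 2 lower, with limma and an adjusted p under 0.05. Scaled to total reads only 7 passed, 2 higher and 5 lower. The lists, like the members, were chosen with earlier results of these data known, so their shares and p-values are read as descriptions.

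Of the supply list, 1 of 7 tested genes rose and 1 fell in female gWAT (median log2 difference 0.60, beside -0.03 over all genes). Aasdhppt, which transfers the phosphopantetheine arm of coenzyme A onto carrier proteins, rose from 44.0 ± 10.2 to 74.8 ± 14.5 normalized counts (limma adjusted p = 0.0162). Vnn1, the pantetheinase that recycles pantothenate, fell from 17.6 ± 7.66 to 5.86 ± 3.81 (limma adjusted p = 0.0422), and its call also held with total-read scaling, where Aasdhppt was not called and the list median was 0.27.

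Among the thioesterases, Acot13 (log2 difference 0.97, SE 0.23, limma adjusted p = 0.00871) and Acot11 (2.15, SE 0.75, limma adjusted p = 0.0494) rose in female gWAT, 2 of 8 tested, with a list median of 0.44. Neither passed with total-read scaling, where Acot1 and Acot8 passed as lower. The Acot11 groups overlapped, at 9.56 ± 8.00 normalized counts in controls (3.31 to 21.1) and 69.2 ± 91.2 in nicotine libraries (6.01 to 229). All 11 tested synthetases had a higher mean log2 value, 7 of 11 with total-read scaling, and 4 rose, with a list median of 0.75. Acsl1, the main long-chain synthetase of fat and liver, rose from 2139 ± 646 to 3563 ± 854 (limma adjusted p = 0.0271), and the cytosolic acetate-activating Acss2 rose 3.07-fold (limma adjusted p = 0.0427). Acsl3 and the medium-chain Acsm3 also rose, and of the 4 Acsm3 alone passed with total-read scaling, where the list median was 0.41.

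Of 12 tested PPARα targets, 4 rose in female gWAT, among them Cpt2 and Acadm, of fatty acid oxidation, and Pex11a, of peroxisome division. Cpt2, the inner carnitine palmitoyltransferase, rose 2.25-fold with no overlap (94.6 ± 29.7 to 213 ± 42.7, limma adjusted p = 0.00229), and with total-read scaling it was the only target called higher, so that Acadm and Pex11a were not called. Cpt1a, the outer carnitine palmitoyltransferase, fell from 91.7 ± 19.9 to 48.2 ± 22.5 (limma adjusted p = 0.0205), against the direction of the other 4. The list median was 0.62, and 0.28 with total-read scaling, where Cpt1a and Angptl4 were called lower.

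In female liver 3 of 43 tested list genes passed with limma (6.98%, beside 3.28% of all 9173 genes), all PPARα targets and in different directions. Of the 15 tested targets 13 had a lower mean log2 value, and 12 with total-read scaling. The list median was -0.19, and -0.16 with total-read scaling. Angptl4, an inhibitor of lipoprotein lipase, rose 1.98-fold, from 86.5 ± 12.3 to 171 ± 4.81 (limma adjusted p = 2.53e-05), while the lipid droplet protein Plin2 fell from 900.2 ± 127 to 597 ± 108 (limma adjusted p = 0.00475) and the fatty acid hydroxylase Cyp4a10 fell from 2033 ± 629 to 1071 ± 440 (limma adjusted p = 0.0262). The 2 supply genes of smallest p were Slc5a6, which carries pantothenate into cells (22.1 ± 5.70 against 33.5 ± 2.23, limma adjusted p = 0.0814), and Slc25a16 (79.5 ± 6.23 against 114 ± 28.9, limma adjusted p = 0.0904). Without control library 3 or nicotine library 1, 8 and 7 list genes passed.

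In male liver 0 of 45 tested list genes passed with limma, beside 0.055% of all 9093 genes. Of the 45, 13 had an unadjusted limma p under 0.05, beside 14.5% of all genes. For the lists edgeR called 0 and DESeq2 2, and DESeq2 called 2.05% of all genes. Of 13 tested synthetases 12 had a lower mean log2 value, also with total-read scaling, with a list median of -0.37 beside 0.00 over all genes, and the smallest p was that of Acss2 (288 ± 78.4 against 131 ± 85.1, limma adjusted p = 0.208). Cpt2 (194 ± 23.7 against 134 ± 10.5) and Cpt1a (1038 ± 117 against 682 ± 128) led the PPARα targets, each with a limma adjusted p of 0.122. Vnn1 stood at 73.2 ± 13.0 against 48.8 ± 21.9. In male gWAT 0 of 38 passed with limma, beside 0 of all 11210 genes. Of the 38, 1 had an unadjusted limma p under 0.05 (Plin2), beside 182 of all genes, and edgeR and DESeq2 called 0.

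Genes whose values followed Pank1 from library to library were listed by Pearson correlation, as a description, since libraries of a table share their preparation and, in part, their composition. Over the 20 liver libraries, with each table's mean subtracted, the genes most like Pank1 included Glul (0.96), Cpn2 (0.96), Acsl1 (0.95) and Slc10a1 (0.94). Male nicotine libraries 1 and 5 lay farthest out, and over the other 18 the values for these were 0.74, 0.77, 0.75 and 0.70. With each group's mean subtracted, Glul, the glutamine synthetase of hepatocytes around the central vein, led again at 0.97 (0.92 over 18 libraries), followed by Cyp2c50, Cyp2c54, Adipor2 and Sult2a8. Glul itself held 2242 ± 79.7 normalized counts in male control livers and 1427 ± 972 in male nicotine livers.

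Among the members in liver, with table means subtracted, Nudt7 stood at 0.88 and Pank3 at 0.72. Over the 18 libraries those values were 0.42 and 0.47, so on that measure the order rested on male nicotine libraries 1 and 5. With each group's mean subtracted, Nudt7 stood at 0.89 and Pank3 at 0.54. Over the 18 libraries these were 0.74 and 0.37, so the order held on that measure. Over the 19 gWAT libraries the 5 genes most like Pank1, with table means subtracted, were Actr6 (0.89), Cpeb2 (0.89), Tmem268 (0.85), Pgp (0.83) and Ahcyl1 (0.83), none of them in the liver list. Of the members, Coasy (0.52), Nudt7 (0.32), Ppcs (0.32) and Pank3 (0.22) ranked 673, 2118, 2190 and 3031 of 10041 genes on that measure. Over 17 libraries, without female control library 4 and nicotine library 3, which lay farthest out, the values were 0.24, 0.07, -0.03 and -0.15. Subtracting each group's mean takes out the nicotine difference. Coasy then stood at 0.21, Ppcs at 0.20, Nudt7 at -0.21 and Pank3 at -0.31 over the 19 libraries. The genes most like Pank1 were then Cpeb2 (0.85), Dusp19 (0.85), Tmem268 (0.83), Timm29 (0.81) and Suox (0.80).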

How the data were processed

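Libraries were 3′-tag RNA-seq, per the labels' protocols, and per the submitters' processing notes cutadapt, STAR, mm10 and DESeq2 (no versions) were used. How reads were counted, with which annotation and whether by strand is not given in the sources used here. If strand was not used, sense and antisense genes share reads. The authors deposited normalized counts, a signal obtained by dividing gene counts by a size factor per library within each of 4 tables. Per the file headers, the authors' tables also give a mean, a log2 fold change, a p-value, and, held here as scores, its standard error and adjusted p-value.

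Computed here: whole reads were recovered (100% of values whole within 0.1) and used for RPM. Each table was fitted on its own with limma 3.58.1 in R 4.3.3 (eBayes, trend on) after a log2(normalized count + 1) transform. Genes averaging at least 10 entered, and p-values were adjusted over all of them by Benjamini-Hochberg, called under 0.05. The members and lists were chosen with earlier results of these data known. Text names all 9 members and, per list and table, up to 4 called genes, or 2 where none passed; the 5 genes most like Pank1 were named per tissue. Not every gene that the rule names is reported here. Acot1, Acot8, Pex11a and, in female gWAT, Angptl4 follow from counts and were named after their values were seen. Alternatives were other pseudocounts (0.5 and 5), no filter, a mean of 50, quantile normalization, scaling to total reads, edgeR 4.0.16 and DESeq2 1.42.0 on the recovered reads, the replicate number as a block, and libraries left out. The design assumed 5 male gWAT controls, and 4 columns were used, unnumbered because their names do not show which sample each is. The fit was tested on simulated data. The simulated libraries had no shift in mitochondrial reads and no libraries set apart, so that test does not bear on either.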

Additional observations from a re-analysis of the deposited data

Results flagged for a closer look

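Among 72 sets of values (a member in a group of 4 or 5 libraries), 4 had a library far from the others, measured by the gap to its neighbour over the whole range; chance marks about 1 in 20. Ppcs stood at 83.5 normalized counts in female liver nicotine library 1, with the others at 52.3 to 61.1. Coasy stood at 177 in male liver nicotine library 1, with the others at 224 to 236. Ppcdc stood at 30.0 in the second male gWAT control column, against 22.6 to 23.4, and Nudt19 at 38.2 in the fourth, against 78.8 to 84.7.

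In normalized counts, all 5 female nicotine libraries lay under the control mean in liver and above it in gWAT for Pank1 and for Coasy. Neither gene passed the threshold in female liver, and in RPM, Coasy in female gWAT nicotine library 1 (67.1) lay under the control mean (75.3). The log2 difference of Pank1 was -0.10 in female liver and 2.35 in female gWAT, and that of Coasy was -0.28 in female liver and 0.78 in female gWAT. The difference between the tissues was not tested.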

How the results depend on the processing

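Of 626 refits of the members' differences, 583 kept their direction and side of the threshold, 17 fell short of it, 1 passed it and 25 changed sign; for Pank1 these were 78, 0, 0 and 1 of 79. Genes called in female liver (main 301) numbered 173 without control 4 and nicotine 5, which held muscle transcripts, and 185 to 327 with single libraries left out. In male liver (main 5) they numbered 0 at a mean of 50 or more, 3 with edgeR, 186 with DESeq2, 0 with the replicate block, 21 without nicotine 2 and 4, and 0 to 12 with single libraries left out. Members called numbered 1 in male liver with DESeq2 and 1 in female gWAT with total-read scaling (2 to 4 with single libraries left out). List genes called numbered 5 (no filter), 7 (replicate block) and 2 to 8 (single libraries left out) in female liver, 2 in male liver with DESeq2, and 7 (total-read scaling) and 6 to 19 (single libraries left out) in female gWAT. The female liver over gWAT ratio of Nudt7 was 4.59 from normalized counts (main 3.85).

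Signs turned under total-read scaling for Ppcs in female liver (0.019), Coasy (0.029) and Nudt19 (0.099) in male liver and Pank2 in female gWAT (-0.16). They turned for Nudt7 in female liver without control 4 and nicotine 5 (-0.037), for Nudt7 (0.19) and Nudt19 (0.055) in male liver without nicotine 1 and 5, for Nudt19 there without nicotine 2 and 4 (0.0080), for Pank3 in male gWAT with quantile normalization (-0.0086) and for Nudt7 there without control 1 and nicotine 1 (-0.026). Leaving out single libraries gave ranges across 0 for Pank1 in male gWAT (-0.66 to 0.21), in female liver for Ppcs (-0.11 to 0.10), Ppcdc (-0.26 to 0.019) and Nudt7 (-0.084 to 0.13), for Nudt19 in male liver (-0.092 to 0.084), female gWAT (-0.33 to 0.020) and male gWAT (-0.11 to 0.29), and for Pank3 in male gWAT (-0.090 to 0.20). Apart from the total-read scaling, whose construction moves all genes, the cause was not tested.

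Correlations of same-numbered deviations ran from -0.28 to 0.17 over 15 pairs, and those of other-numbered deviations from -0.36 to 0.45. Same-numbered samples thus did not stand out, which does not show whether any samples shared a father or litter. With the number as a block, Pank3 alone of the 4 members lost its call in female gWAT, at the same difference of 0.76. No block was fitted in male gWAT, whose control columns carry no sample number. Depth limits Pank4, with under 10 normalized counts in each library.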
